A study of Mus musculus with 12 samples.

Results

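The genes described are 10 genes of leukocyte adhesion and activated endothelium, chosen by symbol: Icam1, Vcam1, Sele, Selp, Plvap, Pecam1, Itgb2, Itgal, Selplg and Cd44. Of these 10 genes, 8 are among the 11289 genes of the liver table, while Sele and Selp, which encode E-selectin and P-selectin, are not in it and were not analysed. The liver RNA came from 12 C57BL/6J mice, 4 in each of 3 groups, collected at 24 h. Mice of the Con A + PBS group (labelled Con A) and of the Con A + hWJ-MSCs group (labelled Con A + MSCs) were given the T cell-activating lectin concanavalin A (Con A) at 15 mg/kg through the tail vein. PBS or 2000000 hWJ-MSCs (human mesenchymal stromal cells from Wharton's jelly, the connective tissue of the umbilical cord) followed intravenously after 30 min, and the labels do not say what the control mice were given. The mice were 8 to 10 weeks old by the labels, and the study's methods give a younger age range and fewer cells per mouse.

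Leukocytes leave the blood in steps. Selectins on endothelium bind carbohydrate-bearing ligands such as PSGL-1 (Selplg) and slow the cells, integrins on the leukocyte then bind immunoglobulin-type ligands such as ICAM-1 and VCAM-1, and PECAM-1 at the junctions takes part in the passage through the vessel wall. In liver sinusoids, selectins are known to matter less than in other vessels, and ICAM-1, VCAM-1 and the hyaluronan receptor CD44 have larger roles. Plvap encodes the protein of the diaphragms that close endothelial fenestrae and caveolae.

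The values are whole-number scores that the authors had normalized between mice, so sequencing depth is unknown. The totals of the scores differed between mice by 0.0425% of their median, and every gene in the table reached a score of 64 in at least 2 mice, so a gene that is not in the table cannot be read as absent from the liver. All 6 hepatocyte markers were in the table at scores above 0 in every mouse, and their summed score was 1060125 to 1324988 in control, 624592 to 649144 in Con A + PBS livers, and 614315 to 687363 with hWJ-MSCs. After Con A 3 of the 6 fell and 0 rose, but 2 of the 6 had the same score in all 12 mice, near or at the top of the scale, and could not move, so differences between the sums come from the other 4. All 13 endothelial markers were in the table and summed to 2832 to 3805 in control, 1505 to 2271 in Con A + PBS livers, and 1700 to 2535 with hWJ-MSCs. The 9 of 12 pan-leukocyte markers in the table summed to 2562 to 3126, 3811 to 5486 and 3200 to 5005 in the same order. Of the markers of platelets, which also carry P-selectin, and of B cells, 0 of 6 and 0 of 4 were in the table, and of the 8 T cell markers 2 were. In whole liver, fewer cells of a type and less RNA per cell cannot be told apart.

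After Con A, 4 of the 8 genes rose and 1 fell. Icam1 rose 4.08-fold, Selplg 2.35-fold, Itgb2 1.91-fold and Vcam1 1.78-fold, while Plvap fell to 0.335 of its control level, and Pecam1, Itgal and Cd44 did not pass the test. The test asked for both a limma adjusted p below 0.05, by Benjamini-Hochberg over all genes in the table, and more than a 1.5-fold change on the log2(score + 1) scale, and a gene that met both is termed called. The 8 genes had a median log2 fold change of 0.62, against 0.05 over all genes. Every mouse had the same median score, 352, so values near 0 over all genes, in each comparison, follow largely from the normalization. Of all genes tested, 38.8% were called in this comparison, 19.5% up and 19.2% down, against 5 of the 8 members. These 5 genes were also those whose groups did not overlap, 4 above and 1 below. Over all genes, 27.1% lay completely above the control mice and 23.4% completely below. Each of the 5 calls was kept in all 12 fits that left out 1 mouse. The median over the members is a description, since they were chosen by hand with earlier results of these data known.

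**Figure D1:**
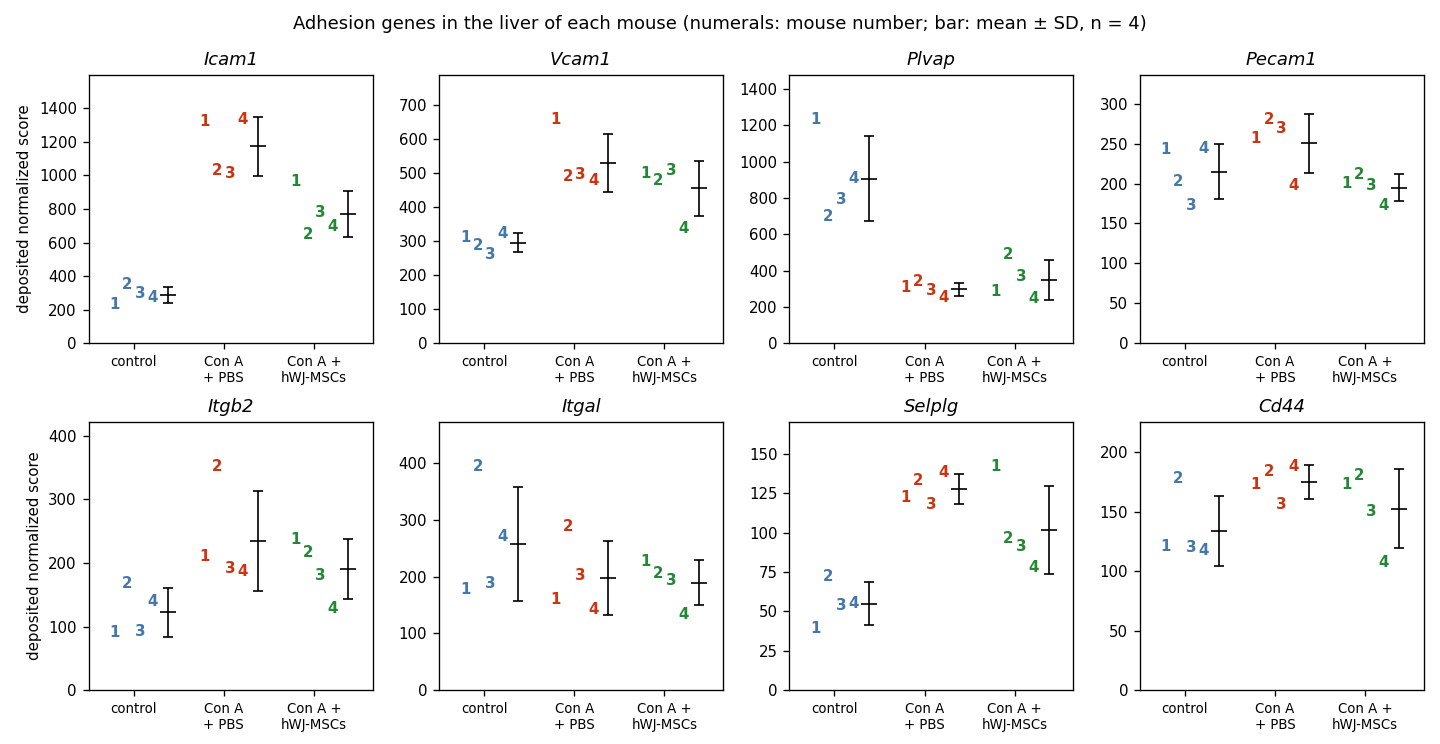
Deposited normalized score (linear axis from 0) of each of the 8 genes in each mouse, by group, with the mouse number as the symbol and the mean ± SD of the 4 mice as the black bar. Icam1 lay between 229 and 350 in control, 1012 and 1331 in Con A + PBS livers, and 648 and 962 with hWJ-MSCs, and Plvap was at or below 492 in all 8 Con A-treated mice.

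Icam1 encodes ICAM-1, the ligand of the leukocyte integrins LFA-1 and Mac-1, and is made by endothelium and, in inflamed liver, also by hepatocytes and leukocytes. The stretch before its start is printed because Icam1 changed most among the members, and Cd44 is shown beside it as a member that did not pass the test. Both are RefSeq sequences of GRCm38.p6, 250 bases that end at the base before the RefSeq start, at chr9:21015690-21015939 on the plus strand for Icam1 and at chr2:102901666-102901915 on the minus strand for Cd44. Of the 8 genes, these 2 matched the RefSeq promoter table by symbol. Capitals mark matches, on either strand, to the κB-like letters GGNNNTTCC, the GAS letters TTCNNNGAA, the ISRE-like motif (GAAA, any 2 bases and GAAA again, as in interferon response elements), the AP-1 letters TGANTCA and the TATA letters TATAAA.
Icam1: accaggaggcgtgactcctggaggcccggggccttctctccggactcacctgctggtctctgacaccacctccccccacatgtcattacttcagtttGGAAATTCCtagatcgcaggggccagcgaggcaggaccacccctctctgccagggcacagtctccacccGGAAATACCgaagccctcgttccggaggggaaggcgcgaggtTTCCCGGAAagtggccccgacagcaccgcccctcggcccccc
Cd44: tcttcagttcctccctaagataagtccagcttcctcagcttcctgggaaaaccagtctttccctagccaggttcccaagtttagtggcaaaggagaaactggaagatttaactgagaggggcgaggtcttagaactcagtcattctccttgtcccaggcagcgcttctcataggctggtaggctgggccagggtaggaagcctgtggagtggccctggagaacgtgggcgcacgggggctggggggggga

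In the Icam1 stretch, GGAAATTCC matched the κB-like letters on both strands from 153 to 145 bases before the start, and GGAAATACC matched them on the minus strand from 84 to 76 bases before it. The GAS letters, of the kind found in interferon-gamma-activated sites, matched TTCCCGGAA from 42 to 34 bases before the start. The Cd44 stretch held none of the 5 motifs. Among 32851 windows of the same length in the table, 15.7% held the κB-like letters, 7.02% the GAS letters, 2.98% the ISRE-like motif, 6.75% the AP-1 letters and 12.4% the TATA letters. The deposited table places Icam1 at chr9:21015960-21028797 (mm10, plus strand), so its start there lies downstream of the RefSeq start.

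The Icam1 score was 229, 350, 298 and 274 in control mice 1 to 4, and 1318, 1028, 1012 and 1331 in Con A + PBS mice 1 to 4. Every Con A + PBS mouse lay far above every control mouse, with mice 1 and 4 highest. The group values were 288 ± 50.4 and 1172 ± 176 (SD, n = 4), a log2 fold change of 2.03 ± 0.16 (SE; limma, Benjamini-Hochberg adjusted p = 1.4e-06). In the Con A + hWJ-MSCs group the Icam1 score was 962, 648, 776 and 693, with a group value of 770 ± 139 (SD, n = 4). These mice lay between the other groups without overlap with either, and mouse 1 was nearest to the Con A + PBS mice. Against Con A + PBS, Icam1 fell by 0.61 ± 0.16 on the log2 scale with hWJ-MSCs (SE; limma, Benjamini-Hochberg adjusted p = 0.0341), to 0.655 of the Con A + PBS level. It stayed above control by a log2 fold change of 1.42 ± 0.16 (SE; limma, Benjamini-Hochberg adjusted p = 3.9e-05). The call of the decrease was lost in 5 of the 12 fits without 1 mouse, with a limma adjusted p of 0.0948 without Con A + PBS mouse 1, 0.0791 without Con A + PBS mouse 4, 0.102 without Con A + hWJ-MSCs mouse 2, 0.0791 without mouse 3 and 0.0521 without mouse 4 of that group.

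Vcam1 (chromosome 3 from 116110020 to 116129688, minus strand) encodes VCAM-1, the ligand of the integrin VLA-4, whose chains are encoded by Itga4 and Itgb1. Its score was 310, 286, 262 and 323 in control mice and 656, 488, 496 and 476 in Con A + PBS mice. All Con A + PBS mice were above all control mice, and mouse 1 stood above the other 3, which were close together. The group values were 295 ± 26.9 and 529 ± 85.1 (SD, n = 4), with a log2 fold change of 0.83 ± 0.15 (SE; limma, Benjamini-Hochberg adjusted p = 5.1e-04). In Con A + hWJ-MSCs mice the Vcam1 score was 498, 476, 506 and 336, or 454 ± 79.7 (SD, n = 4). Of these mice, 1 to 3 lay within the range of the Con A + PBS group, and mouse 4 lay nearer to control. The log2 difference from Con A + PBS was -0.23, with a 95% interval from -0.55 to 0.10 (limma, Benjamini-Hochberg adjusted p = 0.293). The log2 difference from control was 0.60 ± 0.15 (SE; limma, Benjamini-Hochberg adjusted p = 0.00648), and all 4 mice were above the control mice. This call rests on the 1.5-fold threshold. Without control mouse 3 the log2 value was 0.55, and without Con A + hWJ-MSCs mouse 1, 2 or 3 it was 0.55, 0.58 or 0.55, each below 1.5-fold.

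Plvap (chromosome 8 from 71497754 to 71511769, minus strand) fell in both Con A-treated groups. Its score was 1232, 699, 792 and 906 in control mice, 308, 342, 290 and 254 in Con A + PBS livers, and 284, 492, 370 and 249 with hWJ-MSCs. The 8 Con A-treated mice all lay below the lowest control mouse, and Con A + hWJ-MSCs mouse 2 was the highest of them. The group values were 907 ± 232, 298 ± 36.7 and 349 ± 108 (SD, n = 4). Plvap fell by 1.58 ± 0.21 on the log2 scale after Con A (SE; limma, Benjamini-Hochberg adjusted p = 7.1e-05) and remained lower than control by a log2 difference of -1.39 ± 0.21 with hWJ-MSCs (SE; limma, Benjamini-Hochberg adjusted p = 3.4e-04). The difference between the Con A-treated groups was 0.18, with a 95% interval from -0.28 to 0.65 (limma, Benjamini-Hochberg adjusted p = 0.573). The Plvap transcript overlaps Gtpbp3 on the opposite strand, and the kit and counting are not stated to use strand. Gtpbp3 scores were 178 to 214 in control, 226 to 244 in Con A + PBS livers, and 176 to 236 with hWJ-MSCs, and the part of reads from Gtpbp3 in the Plvap values was not tested.

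Pecam1 (chromosome 11 from 106654217 to 106715265, minus strand) encodes PECAM-1, a junctional protein of endothelium that platelets and leukocytes also carry. Its score was 242, 202, 172 and 244 in control mice, 256, 280, 269 and 197 in Con A + PBS livers, and 200, 211, 197 and 172 with hWJ-MSCs. The 3 groups overlapped. The log2 difference of Con A + PBS from control was 0.22, with a 95% interval from -0.09 to 0.53 (limma, Benjamini-Hochberg adjusted p = 0.207). The difference of Con A + hWJ-MSCs from Con A + PBS was -0.35, from -0.66 to -0.04 (limma, Benjamini-Hochberg adjusted p = 0.106), and that from control was -0.13, from -0.44 to 0.18 (limma, Benjamini-Hochberg adjusted p = 0.499).

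Itgb2 and Itgal encode the β2 and αL chains that pair as LFA-1, the integrin that binds ICAM-1, and only Itgb2 passed the test after Con A. Itgb2 (chromosome 10 from 77530252 to 77565686, plus strand) had scores of 90, 168, 92 and 139 in control mice, 210, 352, 192 and 186 in Con A + PBS livers, and 237, 216, 181 and 129 with hWJ-MSCs. Mouse 2 was high in both the control and the Con A + PBS group, and the lowest Con A + PBS mouse was still above the highest control mouse. The group values were 122 ± 37.99, 235 ± 78.7 and 191 ± 47.2 (SD, n = 4). Itgb2 rose by a log2 fold change of 0.94 ± 0.26 after Con A (SE; limma, Benjamini-Hochberg adjusted p = 0.00924). In Con A + hWJ-MSCs mice it differed from Con A + PBS by -0.28, with a 95% interval from -0.86 to 0.29 (limma, Benjamini-Hochberg adjusted p = 0.464). The difference from control was 0.65 and was not called (limma, Benjamini-Hochberg adjusted p = 0.0648), but it was called without control mouse 2 (0.82, limma adjusted p = 0.0333), without Con A + PBS mouse 2 (0.65, limma adjusted p = 0.0393) or without Con A + hWJ-MSCs mouse 4 (0.83, limma adjusted p = 0.0296).

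Itgal (chromosome 7 from 127296260 to 127335137, plus strand) had scores of 177, 394, 188 and 270 in control mice, 160, 288, 202 and 142 in Con A + PBS livers, and 226, 206, 193 and 133 with hWJ-MSCs. The 3 groups overlapped, and mouse 2 was the highest in the control and in the Con A + PBS group, as for Itgb2. The log2 difference after Con A was -0.35, with a 95% interval from -0.95 to 0.25 (limma, Benjamini-Hochberg adjusted p = 0.295), and between the Con A-treated groups it was -0.04, from -0.64 to 0.56 (limma, Benjamini-Hochberg adjusted p = 0.94). The ratio of the Itgal score to the Itgb2 score, in which a level common to both cancels, was 1.97, 2.35, 2.04 and 1.94 in control mice and 0.762, 0.818, 1.05 and 0.763 in Con A + PBS mice. In Con A + hWJ-MSCs mice it was 0.954, 0.954, 1.07 and 1.03. All 8 Con A-treated mice were below all control mice in this ratio, which was computed after the values were seen and is given without a test. Itgam, the αM chain that pairs with β2 as Mac-1 on myeloid cells, was 58 to 98 in control, 188 to 298 in Con A + PBS livers, and 160 to 322 with hWJ-MSCs, a log2 fold change of 1.57 ± 0.23 after Con A (SE; limma, Benjamini-Hochberg adjusted p = 1.2e-04). The αX chain gene Itgax is not in the table.

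Selplg (chromosome 5 from 113817798 to 113830501, minus strand) encodes PSGL-1, the leukocyte ligand of P-selectin. Its score was 39, 72, 54 and 55 in control mice, 122, 133, 118 and 138 in Con A + PBS livers, and 142, 96, 91 and 78 with hWJ-MSCs. The Con A + PBS mice were close together and all above control, and the Con A + hWJ-MSCs mice were above control as well, with mouse 1 the highest of the 12 and the other 3 below the Con A + PBS group. The group values were 55.0 ± 13.5, 128 ± 9.32 and 102 ± 27.9 (SD, n = 4). Selplg rose by a log2 fold change of 1.23 ± 0.21 after Con A (SE; limma, Benjamini-Hochberg adjusted p = 3.5e-04) and was 0.87 ± 0.21 above control with hWJ-MSCs (SE; limma, Benjamini-Hochberg adjusted p = 0.00558). Its log2 difference between the Con A-treated groups was -0.36, with a 95% interval from -0.81 to 0.09 (limma, Benjamini-Hochberg adjusted p = 0.238).

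Cd44 (chromosome 2 from 102811141 to 102901625, minus strand) encodes the hyaluronan receptor of leukocytes and many other cells. Its score was 121, 178, 120 and 117 in control mice, 173, 184, 156 and 188 in Con A + PBS livers, and 173, 180, 150 and 107 with hWJ-MSCs. Control mouse 2 stood apart from the other 3 control mice and lay within the range of the Con A + PBS group. The log2 difference after Con A was 0.40, with a 95% interval from 0.01 to 0.79 that reached past 1.5-fold (limma, Benjamini-Hochberg adjusted p = 0.0726). Without control mouse 2 it was 0.55 (limma, Benjamini-Hochberg adjusted p = 0.0177), still below 1.5-fold. Between the Con A-treated groups it was -0.22, from -0.61 to 0.17 (limma, Benjamini-Hochberg adjusted p = 0.395). The table has 1 row for Cd44, a gene with 9 transcripts in GENCODE M21, so its splice forms were not compared.

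Between the Con A-treated groups 1 of the 8 members, Icam1, was called, against 8.58% of all genes, 4.2% up and 4.38% down. Icam1 was also the member whose groups did not overlap, where the groups of 11.9% of all genes did not overlap upward and of 11.6% downward. The members had a median log2 difference of -0.26 in this comparison, against 0.00 over all genes, and 7 of the 8 point estimates were below 0. In hWJ-MSC-treated against control livers, 4 members were called, Icam1, Vcam1 and Selplg up and Plvap down, against 26.7% of all genes, 13.6% up and 13.1% down. The same 4 did not overlap with control, 3 above and 1 below, as did 20.6% and 17.3% of all genes. The comparisons share groups of mice, so that their values stand side by side and are not independent.

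**Figure D2:**
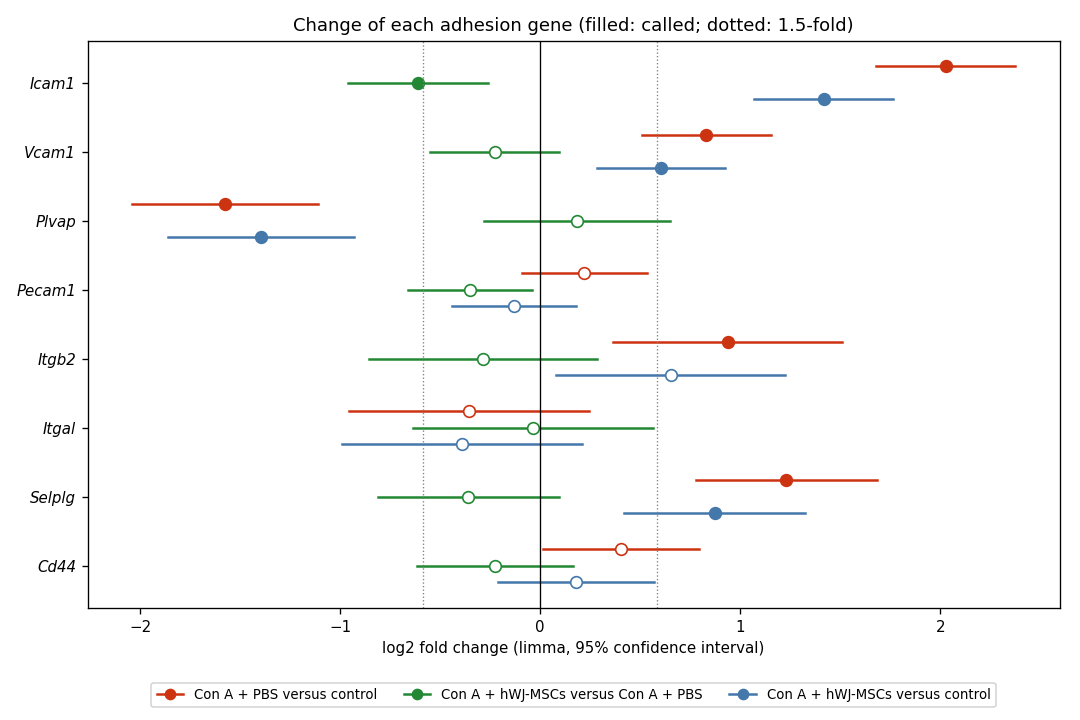
Log2 fold change of each gene (horizontal axis, limma) with its 95% confidence interval in the 3 comparisons, filled where called, with dotted lines at a 1.5-fold change. Icam1 is called in all 3 comparisons, at 2.03, -0.61 and 1.42, while the intervals of Vcam1, Plvap, Itgb2, Itgal, Selplg and Cd44 between the Con A-treated groups include 0.

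To set the genes against the cells that carry them, the mean log2 score of a marker list was subtracted from each gene in the same mouse, the 13 endothelial markers for Icam1, Vcam1, Plvap and Pecam1, and the 9 pan-leukocyte markers for Itgb2, Itgal, Selplg and Cd44. Icam1 and Cd44 are also made by other cells, and Pecam1 and Vcam1 are not limited to endothelium. The mean of the endothelial list lay at 7.59 ± 0.21 in control, 6.69 ± 0.27 in Con A + PBS livers, and 6.85 ± 0.31 with hWJ-MSCs, and the pan-leukocyte list mean was 7.57 ± 0.23, 8.53 ± 0.24 and 8.50 ± 0.25 (log2, SD, n = 4). Of the endothelial markers, 7 of 13 fell and 0 rose after Con A, and of the pan-leukocyte markers, 6 of 9 rose and 0 fell. Over all genes, 19.5% were called up and 19.2% down in this comparison. Neutrophil and monocyte markers rose in 7 of 7 and 6 of 6 genes, and 5 of 5 Kupffer cell markers fell. The 2 T cell markers in the table, of 8 listed, and the 1 NK cell marker, of 4 listed, rose as well.

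Relative to the endothelial list, Icam1 was higher by 2.93, Vcam1 by 1.73 and Pecam1 by 1.12 in Con A + PBS than in control mice on the log2 scale, and Plvap was lower (-0.68). Each of these 4 differences separated the groups completely, with a two-sided exact permutation p of 0.029, the smallest that 4 mice against 4 can give, and 0.0527 after Benjamini-Hochberg adjustment over the 24 such tests, none of which fell below 0.05 after adjustment. The 13 endothelial markers themselves changed by -2.59 to 0.58 on the log2 scale after Con A, so these differences depend on the markers listed. Pecam1, whose own score overlapped between the groups, was 0.08 to 0.29 above the endothelial list in control mice, 1.16 to 1.41 above it in Con A + PBS livers, and 0.56 to 1.09 above it with hWJ-MSCs. It was the one gene of the 8 that separated the Con A-treated groups on this scale, by -0.51 (exact permutation p = 0.029, adjusted 0.0527), while Icam1 differed by -0.77 with overlap (exact permutation p = 0.0857, adjusted 0.147).

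Relative to the pan-leukocyte list, Itgb2 differed by -0.02 between Con A + PBS and control mice (exact permutation p = 0.971) and Selplg by 0.27 (exact permutation p = 0.2), and the groups overlapped for both. Itgal was lower by a log2 difference of -1.31 and Cd44 by -0.55, both without overlap (exact permutation p = 0.029, adjusted 0.0527). With hWJ-MSCs the differences from control were -0.28 for Itgb2, -1.32 for Itgal, -0.06 for Selplg and -0.75 for Cd44, of which those of Itgal and Cd44 were without overlap (exact permutation p = 0.029, adjusted 0.0527). The part of changed cell numbers in these differences was not tested.

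**Figure D3:**
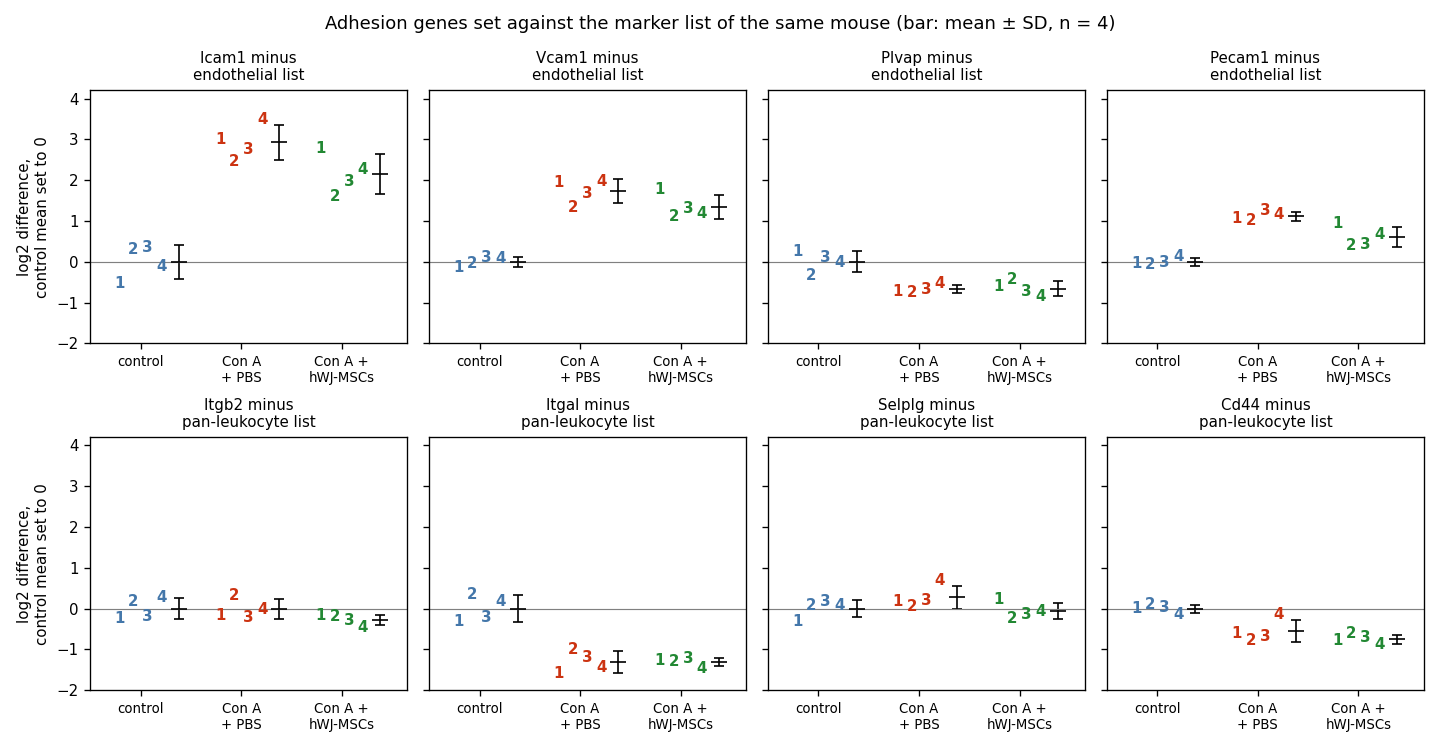
Log2 score of each gene minus the mean log2 score of its marker list in the same mouse (vertical axis, control mean set to 0), by group, with the mouse number as the symbol and the mean ± SD of 4 mice as the black bar. Icam1, Vcam1 and Pecam1 lie above control and Plvap below it in all Con A-treated mice, Itgb2 and Selplg overlap control, and Itgal and Cd44 lie below control.

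The wider adhesion list of 112 genes, ordered by role, has 81 genes in the table. After Con A, 44 of the 81 rose and 10 fell (66.7% called, against 38.8% of all genes). Of the integrin chains other than the members, 7 of 10 rose and 1 fell (80% called, against 38.8% of all genes). Itga4 and Itgb1, the chains of the VCAM-1 receptor, rose by log2 fold changes of 1.15 ± 0.14 (SE; limma, Benjamini-Hochberg adjusted p = 3.5e-05) and 0.82 ± 0.12 (SE; limma, Benjamini-Hochberg adjusted p = 1.2e-04). Itga4 scores were 316 to 389 in control, 705 to 950 in Con A + PBS livers, and 672 to 1017 with hWJ-MSCs. Itgb7, the β7 partner of α4 on gut-homing lymphocytes, rose by 1.86, and Itgb3 and Itgav, the chains of the αvβ3 receptor, rose by 1.01 and 0.82.

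In the selectin group 6 of 10 genes rose and 0 fell (60% called, against 38.8% of all genes). Cd34, a sialomucin of endothelium and progenitor cells, rose by 1.33, B4galt1, a galactosyltransferase, by 0.91, and Glg1, which encodes a ligand of E-selectin, by 0.75. Of the immunoglobulin-type ligands in the table, 4 of 5 rose and 0 fell (80% called, against 38.8% of all genes). Among them, Pvr, the poliovirus receptor, rose by 2.42 and Cd47 by 1.22, and Icam2 is not in the table.

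Of the junction genes, 2 of 12 rose and 3 fell, 41.7% called against 38.8% of all genes, a share near the background. Ptprb, the endothelial phosphatase VE-PTP, which is known to act on VE-cadherin junctions, fell from 700 to 984 in control livers to 43 to 88 after Con A and 52 to 177 with hWJ-MSCs, a log2 difference of -3.82 ± 0.33 after Con A (SE; limma, Benjamini-Hochberg adjusted p = 2.2e-06). Occludin (Ocln) fell by 1.23 and F11r, which encodes JAM-A, rose by 0.61. Cdh5, which encodes VE-cadherin, did not pass the test after Con A (-0.27, limma adjusted p = 0.246) but was lower with hWJ-MSCs than in both other groups, by -0.66 against Con A + PBS (limma adjusted p = 0.0443) and -0.93 against control (limma adjusted p = 0.00231). Esam was above control without overlap in Con A + PBS livers, by 0.58, just under 1.5-fold, and overlapped control with hWJ-MSCs, at 0.33.

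In the CD44 and hyaluronan group 4 of 10 genes rose and 3 fell (70% called, against 38.8% of all genes). Vcan, a hyaluronan-binding proteoglycan, rose by 1.92 and Ezr, the linker ezrin, by 1.44, while Spp1, which encodes osteopontin, a CD44 ligand, varied within the Con A + PBS group from 1992 to 12230 and did not pass the test (0.86, limma adjusted p = 0.162). Of the 8 genes for proteases that cut adhesion molecules from cell surfaces, among which Rhbdf2 encodes a partner of such a protease and no active protease, 7 rose, led by Mmp9 (from 1 to 10 in control to 108 to 138 in Con A + PBS livers) and Adam8 (from 1 to 7 to 102 to 136). Of these 8 genes 87.5% were called, against 38.8% of all genes. Mmp9 is also a neutrophil marker of the list above. Of 12 genes for endothelial activators, their receptors and signaling, 11 rose and 1 fell (100% called, against 38.8% of all genes). Tnfaip3, a feedback inhibitor of NF-κB, rose by a log2 fold change of 3.65. The gene that fell was the cytokine gene Il1a, named after its values were seen, with scores of 48 to 82 in control, 28 to 42 in Con A + PBS livers, and 42 to 58 with hWJ-MSCs, a log2 difference of -0.93 after Con A (limma adjusted p = 0.00336), while Tnf, Lta, Il1b and Ifng themselves are not in the table. Among the integrin activators 3 of 14 rose, among them Vcl, vinculin, by 1.01, and 2 fell, among them Rasgrp2, the Rap1 exchange factor, by 1.11, and these 35.7% called were near the 38.8% of all genes.

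Between the Con A-treated groups, 1 of the 81 genes rose and 14 fell (18.5% called, against 8.58% of all genes). By the rule for named genes, those that fell were Itgb3 (by 1.05), Itgav (by 0.71), Vcl (by 1.27), Pvr (by 1.5), Cdh5 (by 0.66) and Tnfaip3 (by 2.18). Itgb3 scores were 68 to 124 in control, 154 to 206 in Con A + PBS livers, and 67 to 96 with hWJ-MSCs, and its difference between Con A + hWJ-MSCs and control was -0.04 (limma adjusted p = 0.877). The gene that rose, Stab2, a scavenger receptor for hyaluronan on sinusoidal endothelium, was chosen after its values were seen. Its scores were 714 to 978 in control, 412 to 508 in Con A + PBS livers, and 681 to 761 with hWJ-MSCs. Lyve1, another hyaluronan receptor of sinusoidal and lymphatic endothelium that was also chosen after its values were seen, moved the other way. Its scores were 72 to 134 in control, 196 to 252 in Con A + PBS livers, and 105 to 139 with hWJ-MSCs, a log2 fold change of 1.29 after Con A (limma adjusted p = 1.1e-04) and of -0.90 between the Con A-treated groups (limma adjusted p = 0.0224). Both genes are in the list of 8 sinusoidal endothelial markers, of which 7 fell and 1 rose after Con A, and 1 rose and 1 fell between the Con A-treated groups. The log2 differences of the leukocyte integrin chains named above between the Con A-treated groups were -0.08 for Itgam, 0.05 for Itga4 and -0.07 for Itgb7 (limma adjusted p from 0.839 to 0.869). Itgb1 differed by -0.57 without overlap (limma adjusted p = 0.0225), just under 1.5-fold and so not called. Mmp9 and Adam8, which leukocytes also make, differed by -1.30 without overlap (limma adjusted p = 0.112) and by -0.88 with overlap (limma adjusted p = 0.266), and neither was called. The count of 15 genes depended on single mice. It was 1 without Con A + PBS mouse 1, 9 without Con A + PBS mouse 4, 2 without Con A + hWJ-MSCs mouse 2 and 1 without Con A + hWJ-MSCs mouse 3, and over all genes 969 calls became 7, 285, 18 and 7. The calls over all genes were also 563 without Con A + PBS mouse 3 and 506 without Con A + hWJ-MSCs mouse 1, and rose to 1575 without Con A + PBS mouse 2.

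**Figure D4:**
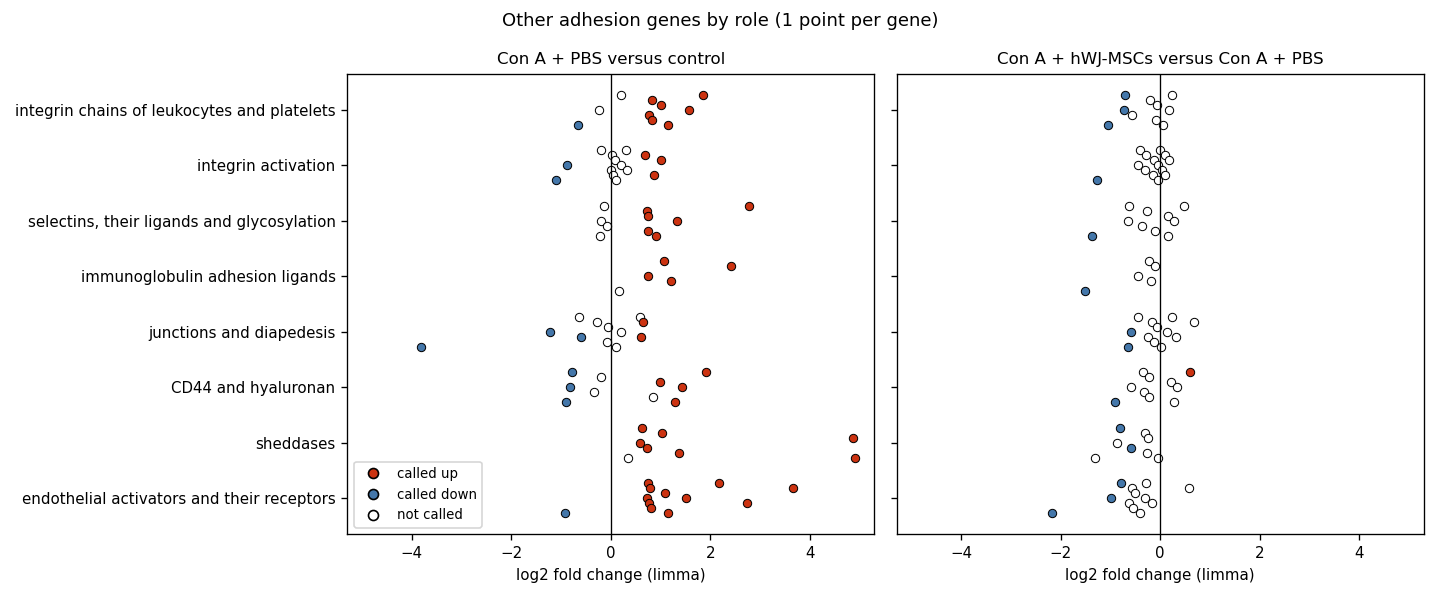
Log2 fold change (limma, horizontal axis) of the 81 other adhesion genes in the table by role, 1 point per gene, after Con A against control on the left and with hWJ-MSCs against Con A + PBS on the right, red where called up and blue where called down. On the left 44 points are red and 10 blue, and on the right 1 is red and 14 are blue.

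The genes of most like pattern were taken as those with the smallest root mean square difference from a member over the 12 mice, on the log2 scale after subtracting the control mean. For Icam1 they were Parp14 (0.191) and Nap1l1 (0.202), for Vcam1 Ifi204 (0.138) and Sp110 (0.151), and for Plvap Aldh1l1 (0.160) and Tln2 (0.174). For Itgb2 they were Rac2 (0.225), a GTPase of blood cells that is also in the pan-leukocyte list, and Lrmp (0.256), for Selplg Ccdc88b (0.189) and Mcm3 (0.199), and for Cd44 Serpinb6a (0.124) and Adam19 (0.138). For Pecam1 and Itgal, which did not pass the test in any comparison, they were S1pr3 (0.152) and Gnptab (0.157), and Rdx (0.229) and Gusb (0.245). Parp14, an interferon-induced ADP-ribosyltransferase, had mean scores of 823 in control livers, 3345 after Con A + PBS and 1881 with hWJ-MSCs.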

How the data were processed

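Liver RNA was sequenced as 150-bp paired-end reads after poly-A selection. Per the labels, the submitters' processing notes name Bowtie2 2.2.1, RSEM 1.2.18 and mm10, and the study's text names DESeq2 for differential expression. The authors deposited 1 score per gene and mouse, a whole number already normalized between mice (10 genes share the largest score, 341028, in each mouse), and not a raw count. How it was normalized is not given in the sources used here, depth is unknown, and a count test was therefore not used. After a log2(score + 1) transform, limma 3.58.1 (R 4.3.3; eBayes, trend on) was run once over the 12 mice with 3 group means. On the transformed scale a fold change of a low gene comes out too small. P-values measure the spread between mice.

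Exact permutation tests, summaries and plots used Python 3.11.15, numpy 2.4.6, pandas 2.3.3, scipy 1.17.1 and matplotlib 3.10.9. The scripts were tested on simulated data. Gene positions are those of the deposited table, and 4 of the 8 transcripts have the same bounds in GENCODE M21 (GRCm38). Icam1 and Vcam1 also overlap antisense genes there, and the reads are not stated to be stranded. The members and gene lists were chosen with earlier results of these data known. Named were all members in the table, 12 partner genes, in each role group the 2 called genes with the largest change after Con A, and for each member the 2 genes of most like pattern. The values of 2 genes that this rule names are not reported here. Results were recomputed with the pseudocount at 10, without genes of mean score under 100, after median centring, with the eBayes trend off, on the 8 mice of a comparison alone, with the p left unadjusted, at a 2-fold threshold, with the replicate number as a block, marker lists without their gene of largest mean score, and without each mouse in turn. The median score was 352 in every mouse, so median centring could not change a result.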

Additional observations from a re-analysis of the deposited data

Results flagged for a closer look

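In a group of 4 mice, a mouse stood apart where its gap to the nearest other mouse took a larger share of the range of the group than Dixon's 95% critical value. Of 126 groups of 4 examined, 9 met this, and chance gives about 1 in 20. Among the members, the highest Con A + PBS mouse stood apart for Vcam1 (mouse 1, 0.889 of the range) and Itgb2 (mouse 2, 0.855), and the highest control mouse for Cd44 (mouse 2, 0.934). Among the other adhesion genes, the highest Con A + hWJ-MSCs mouse stood apart for Itgb1 (0.990), Vcl (0.831) and Adam8 (0.911), the highest Con A + PBS mouse for Adam8 (0.882), the highest control mouse for Rasgrp2 (0.834) and the lowest Con A + hWJ-MSCs mouse for F11r (0.877). The causes were not tested.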

How the results depend on the processing

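The 5 members called after Con A numbered 5 in all 12 fits without 1 mouse, and the 4 called with hWJ-MSCs against control numbered 3 to 5. The 1 called between the Con A-treated groups numbered 0 to 1. In the wider list the corresponding counts were 49 to 55 (54 with all mice), 26 to 31 (29) and 1 to 17 (15). With a fold change above 2 the members called numbered 3 after Con A, 0 between the Con A-treated groups, where the threshold itself left out the smaller changes, and 2 with hWJ-MSCs against control, and the wider list 26, 5 and 13, against 2391, 353 and 1539 of all 11289 genes. Of 189 values for single members under the other alternatives, 5 lost a call, all at a fold change above 2, and 2 gained one, both for Itgb2 with hWJ-MSCs against control, with the unadjusted p and with the replicate block. The 189 include the values after median centring, which could not differ from the main fit. The value of Itgal between the Con A-treated groups turned to 0.16 without Con A + PBS mouse 2 and 0.12 without Con A + hWJ-MSCs mouse 4 (from -0.18 to 0.16 over the 12 fits), and with a mean score of at least 100 Itgb2 and Itgal relative to the pan-leukocyte list turned to 0.0649, after Con A, and 0.00417, between the Con A-treated groups. Without 1 mouse, values relative to the lists that included both signs were those of Itgb2 after Con A (-0.134 to 0.0698), of Itgal (-0.105 to 0.0916) and Plvap (-0.0565 to 0.0824) between the Con A-treated groups and of Selplg with hWJ-MSCs against control (-0.164 to 0.00382). None of the values that changed sign passed a test with all mice. That filter left out Selplg. Same-numbered mice are different animals, and their deviations from the group means correlated between -0.118 and 0.375, so the numbers were not taken to pair them. With the replicate number as a block the members called numbered 5, 1 and 5 in the order after Con A, between the Con A-treated groups and with hWJ-MSCs against control, and all genes called between the Con A-treated groups 1297 in place of 969. Depth is unknown, so what it limits cannot be given.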
